A study of Mus musculus with 48 samples.

Results

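Neuropeptide transcripts were followed in mouse amygdala and hippocampus. The genes were Npy, Sst, Vip, Cck, Penk, Pdyn, Tac1, Tac2, Crh and Adcyap1, and every probe set that the platform annotation gives to 1 of them was taken. These were 12 of the 12422 probe sets that are not array controls, and they covered 9 of the 10 genes. Crh, which encodes corticotropin-releasing hormone, is named by no probe set in the annotation used here. Penk has 3 probe sets, Pdyn has 2 and the other 7 genes have 1 each. For Penk and Pdyn the brightest probe set is called the leading one, and the others follow as the second and the third. By its suffix the leading Penk probe set holds probes that can match several similar sequences, and the other Penk probe sets were designed under relaxed rules.

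The 48 single-channel oligonucleotide arrays were hybridised with biotin-labelled cRNA from 22 amygdala and 26 hippocampus samples of Mus musculus, and strain, sex, age and dissection are not given in the labels. In amygdala there were 6 CS, 6 FC and 10 NH arrays, and in hippocampus 8 CS, 8 FC and 10 NH arrays. The labels leave these codes unexplained. With a title about associative and nonassociative learning, they are taken here as conditioned stimulus alone (CS), fear conditioning (FC) and naive animals from the home cage (NH). No label says that replicates are separate animals, so p-values describe the spread between arrays, which may be technical. The title number of all 22 amygdala arrays starts with the digit of the processing batch, and what follows can be read as 2 joined numbers of at most 3 digits. In 8 of these arrays both such numbers, and in 9 at least 1, are also the number of a hippocampus array of the same arm, 17 hippocampus arrays in all. Read that way, an amygdala array may hold RNA of 2 animals and a hippocampus array RNA of 1, and the tissues may share animals. No label states it and it entered no fit, so if it holds, n, SD and p do not mean the same in both tissues, and the tests between tissues treat arrays of the same animals as independent.

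Neuropeptides are made as precursor proteins, cut by processing enzymes, packed into dense core vesicles and released to act on G protein-coupled receptors. In hippocampus and cortex many of them mark classes of inhibitory neurons, and in the amygdala they are also made by projection neurons, above all in the central and medial nuclei. Several of their genes are textbook targets of CREB, the transcription factor that binds the cAMP response element (CRE).

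Promoter sequences are shown for the 5 genes that carry at least part of that element, since CREB is known to be activated by neuronal activity. Windows are the 250 bases before each start listed in the promoter set used, from RefSeq on GRCm38.p6, and 8 of the 10 genes had an entry. Penk and Crh had none. The full element, TGACGTCA, was in 1 of their 10 windows, against 1.55% of all 32851 promoter windows. Its core, TGACG on one strand and CGTCA on the other, was in 6 of the 10 windows (5 of the 8 genes), against 17.8% of all windows, and every full element also holds the core. Capitals mark these letters.
Sst, chr16:23890845-23891094 (minus strand): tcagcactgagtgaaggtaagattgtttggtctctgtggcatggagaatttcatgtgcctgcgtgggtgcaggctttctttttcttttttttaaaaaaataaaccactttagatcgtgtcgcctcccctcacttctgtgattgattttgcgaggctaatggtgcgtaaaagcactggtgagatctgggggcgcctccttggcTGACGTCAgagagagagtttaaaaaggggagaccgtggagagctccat
Vip, chr10:5638968-5639217 (plus strand): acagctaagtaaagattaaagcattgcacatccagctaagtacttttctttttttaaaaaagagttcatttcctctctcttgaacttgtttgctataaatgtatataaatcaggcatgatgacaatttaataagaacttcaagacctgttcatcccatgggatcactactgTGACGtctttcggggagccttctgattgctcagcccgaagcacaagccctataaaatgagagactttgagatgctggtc
Cck, chr9:121495695-121495944 (minus strand): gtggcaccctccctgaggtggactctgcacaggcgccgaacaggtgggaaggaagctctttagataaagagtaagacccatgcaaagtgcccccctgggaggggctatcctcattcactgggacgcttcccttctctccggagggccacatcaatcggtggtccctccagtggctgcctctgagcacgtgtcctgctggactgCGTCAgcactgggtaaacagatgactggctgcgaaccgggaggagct
Tac1, chr6:7554811-7555060 (plus strand): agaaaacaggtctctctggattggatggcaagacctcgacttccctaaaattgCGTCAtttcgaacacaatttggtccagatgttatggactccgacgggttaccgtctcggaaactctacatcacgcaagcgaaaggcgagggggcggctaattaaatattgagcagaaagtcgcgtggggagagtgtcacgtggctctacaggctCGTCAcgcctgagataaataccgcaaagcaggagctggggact
Adcyap1, chr17:93198767-93199016 (plus strand): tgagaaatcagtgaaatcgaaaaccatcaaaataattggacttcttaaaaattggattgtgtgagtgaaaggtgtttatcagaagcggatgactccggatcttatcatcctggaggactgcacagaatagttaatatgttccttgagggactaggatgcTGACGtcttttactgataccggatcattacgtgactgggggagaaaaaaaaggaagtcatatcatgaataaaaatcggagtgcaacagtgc
In Sst the full element lay 48 to 41 bases before the start. The core began 79 bases before the start in Vip, 47 in Cck, 197 and 43 in Tac1 and 91 in Adcyap1. The second annotated start of Adcyap1 lies downstream, and the same core begins 242 bases before it. No match was found in the windows of Npy, Pdyn or Tac2. For Sst, Vip and Adcyap1 the annotated gene bounds reach upstream of the starts used, so any start further upstream had no window. A match describes letters in a window and does not show binding.

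Deposited intensities were made with RMA, a method that adjusts background and equalises arrays, and array medians lay between 52.3 and 56.1 in amygdala and between 76.5 and 80.8 in hippocampus, which points to a normalization of each tissue by itself. Tissues were therefore compared by the percentile of a probe set within its own array, where 100 is the brightest. Arms were compared within a tissue by log2 intensity, with the processing batch in the labels as a block. In amygdala batch 1 and hippocampus batch 7 all arrays were NH and so cannot inform a difference, and hippocampus batch 5 had none, so each difference from NH rests on 4 NH arrays per tissue. Arrays of a tissue correlated at r of 0.982 or more, and none were identical. Of 14 measured markers of hippocampal neurons, 8 ranked lower on every amygdala array than on any hippocampus array and 2 ranked higher. Over all probe sets, 2.04% ranked lower and 2.34% higher in this way. As a scale for the arms, the activity gene Fos rose by 1.53 ± 0.15 (log2, SE) in amygdala FC arrays over NH arrays (adjusted p = 1.44e-06, limma).

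Between the tissues, the leading Penk probe set, Tac1, Tac2, Adcyap1 and Sst ranked higher on every amygdala array than on any hippocampus array. Cck ranked lower in the same way. Over all 12 probe sets, 9 were higher in amygdala, where the background was 22.3% of all probe sets, and 1 was lower, where it was 21.3% (limma on normal scores of the ranks within arrays, adjusted p below 0.05). For 5 probe sets the arrays of the tissues did not overlap in the higher direction, against 2.34% of all probe sets, and for 1 in the lower direction, against 2.04%. Each processing batch held a single tissue, so batch enters this test only as a random block. In whole tissue, fewer cells of a type and less RNA per cell cannot be told apart.

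**Figure D1:**
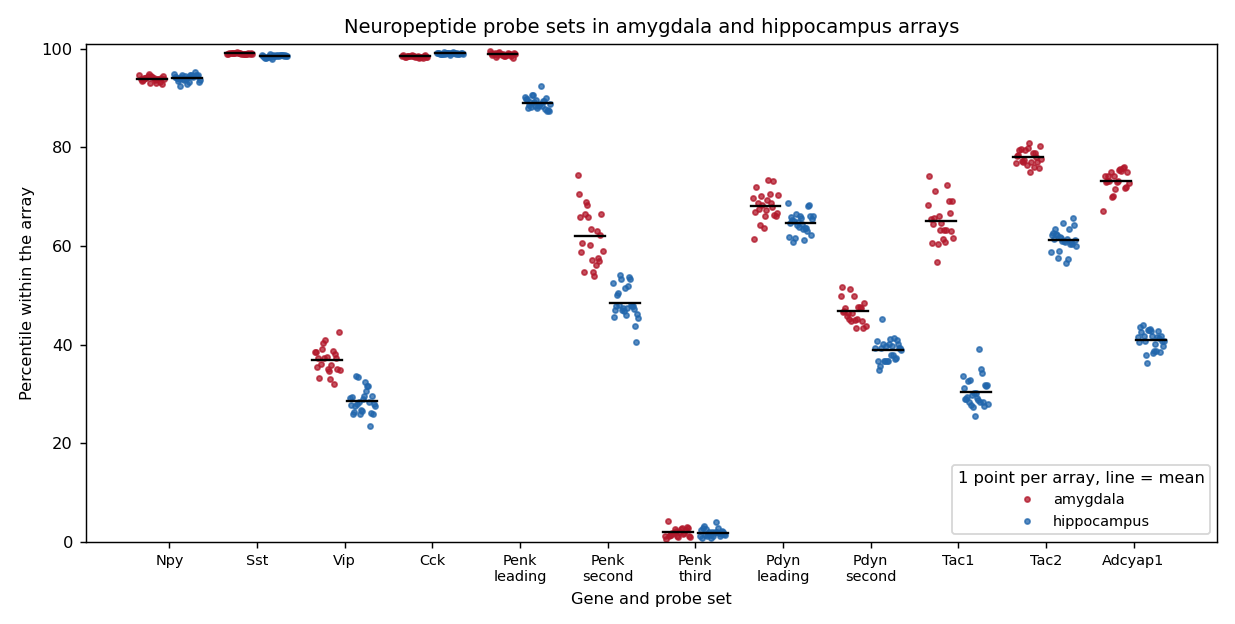
Percentile of each neuropeptide probe set within its array (vertical axis) for each gene and probe set, with amygdala arrays left of hippocampus arrays, 1 point per array and a black line at the mean. The largest gaps are those of Tac1 and Adcyap1, at 34.7 and 32.3 percentile points.

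Among peptides of inhibitory neurons, Sst encodes somatostatin, which is released onto dendrites and also made by long-range amygdala neurons. Its percentile ran from 98.9 through a median of 99.1 to 99.3 in amygdala, and from 98.0 through 98.6 to 98.9 in hippocampus, and no arrays overlapped. The difference was 0.529 points (normal score difference 0.170, adjusted p = 9.11e-09, limma). Both values lie near the top of the array, where percentiles are compressed.

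Cck encodes cholecystokinin, made by a class of basket cells and by many pyramidal cells. It reached 98.1, 98.5 and 98.8 (lowest, median and highest percentile) in amygdala, against 98.9, 99.1 and 99.3 in hippocampus. It was lower in amygdala by a normal score difference of -0.206 (adjusted p = 1.20e-10, limma).

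Npy encodes neuropeptide Y, a peptide that dampens excitation. It averaged 93.9 ± 0.530 percentile points in amygdala (SD, n = 22) and 94.1 ± 0.649 in hippocampus (SD, n = 26), and the ranges overlapped (adjusted p = 0.659, limma). Vip encodes vasoactive intestinal peptide, which marks interneurons that inhibit other interneurons. It was dim in both tissues, at 36.9 ± 2.67 in amygdala and 28.5 ± 2.52 in hippocampus (SD), and it was higher in amygdala with overlapping ranges (adjusted p = 1.19e-07, limma). Of 17 inhibitory neuron markers with a probe set, 7 were higher in every amygdala array, 1 was lower and 9 overlapped. Over all probe sets, 2.34% were higher and 2.04% lower in this way. The part of these markers in the differences of Sst and Vip was not tested.

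Penk encodes proenkephalin, the precursor of the enkephalins. Its leading probe set ran from 98.2 through 99.0 to 99.6 in amygdala, and from 87.4 through 88.8 to 92.5 in hippocampus, and no arrays overlapped. The difference was 9.87 percentile points (normal score difference 1.08, adjusted p = 1.62e-25, limma). The second probe set averaged 62.0 ± 5.74 in amygdala and 48.5 ± 3.31 in hippocampus (SD), with ranges that just overlapped, 53.8 to 74.3 in amygdala and 40.6 to 54.1 in hippocampus (adjusted p = 1.90e-08, limma). The third lay near the bottom of every array, at 1.86 in amygdala and 1.83 in hippocampus (adjusted p = 0.911, limma). Penk is also abundant in striatum, which borders the amygdala. Of 8 striatal neuron markers with a probe set, 1 was higher in every amygdala array and 1 was lower, against 2.34% and 2.04% of all probe sets. The part of these markers in the Penk difference was not tested.

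Pdyn encodes prodynorphin, the precursor of the dynorphins, which granule cells of the dentate gyrus make. Its leading probe set averaged 68.1 ± 2.96 in amygdala and 64.7 ± 2.14 in hippocampus (SD), with wide overlap (adjusted p = 0.0103, limma). This call was lost with CS and FC arrays alone (adjusted p = 0.189, limma). The second probe set averaged 46.8 ± 2.37 in amygdala and 38.8 ± 2.23 in hippocampus (SD) and overlapped less (adjusted p = 3.83e-08, limma).

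The tachykinin precursors showed wide gaps between the tissues. Tac1 encodes the precursor of substance P. Its percentile ran from 56.8 through 64.6 to 74.3 in amygdala, and from 25.6 through 29.6 to 39.2 in hippocampus. The difference was 34.7 percentile points (adjusted p = 1.02e-21, limma), and it was 35.8 in CS arrays, 35.2 in FC arrays and 33.5 in NH arrays taken alone. Tac2 encodes the precursor of neurokinin B. It ran from 75.0 through 77.8 to 80.9 in amygdala, and from 56.6 through 61.4 to 65.6 in hippocampus, a difference of 16.7 points (adjusted p = 7.21e-22, limma).

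Adcyap1 encodes PACAP, a peptide of excitatory neurons that raises cAMP in its target cells. It ran from 67.2 through 73.2 to 76.0 in amygdala, and from 36.2 through 41.4 to 44.0 in hippocampus. The difference was 32.3 points (adjusted p = 4.77e-32, limma) and none of the arrays overlapped. By arm it was 30.9 points in CS arrays, 31.5 in FC arrays and 33.8 in NH arrays.

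For the comparison of arms, the dimmest 40% of probe sets of a tissue, by mean, were set aside and 7453 remained. In amygdala 10 of the 12 probe sets were tested, without Vip and the third Penk probe set. In hippocampus 8 were tested, without these and without Tac1 and the second Pdyn probe set. In hippocampus Adcyap1, at a rank of 41.0% of the probe sets by mean, passed the limit narrowly, and the second Pdyn probe set, at 38.7%, fell just short of it.

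In amygdala, Penk, Sst and a Pdyn probe set had the largest differences from NH, all upward and none past the adjusted threshold. Of the 10 tested probe sets, 0 were called in CS minus NH, where 0.0134% of all probe sets were called, and 0 in FC minus NH, where 0.0939% were (limma). At an unadjusted p below 0.05 there were 2 of 10 in CS minus NH, against 3.92% of all probe sets, and 2 of 10 in FC minus NH, against 5.15%. Signs were positive for 8 of 10 in CS minus NH (median 0.07, against 0.01 and 53.8% positive over all probe sets) and for 7 of 10 in FC minus NH (median 0.09, against 0.01 and 55.2%). Both comparisons share the NH arrays.

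**Figure D2:**
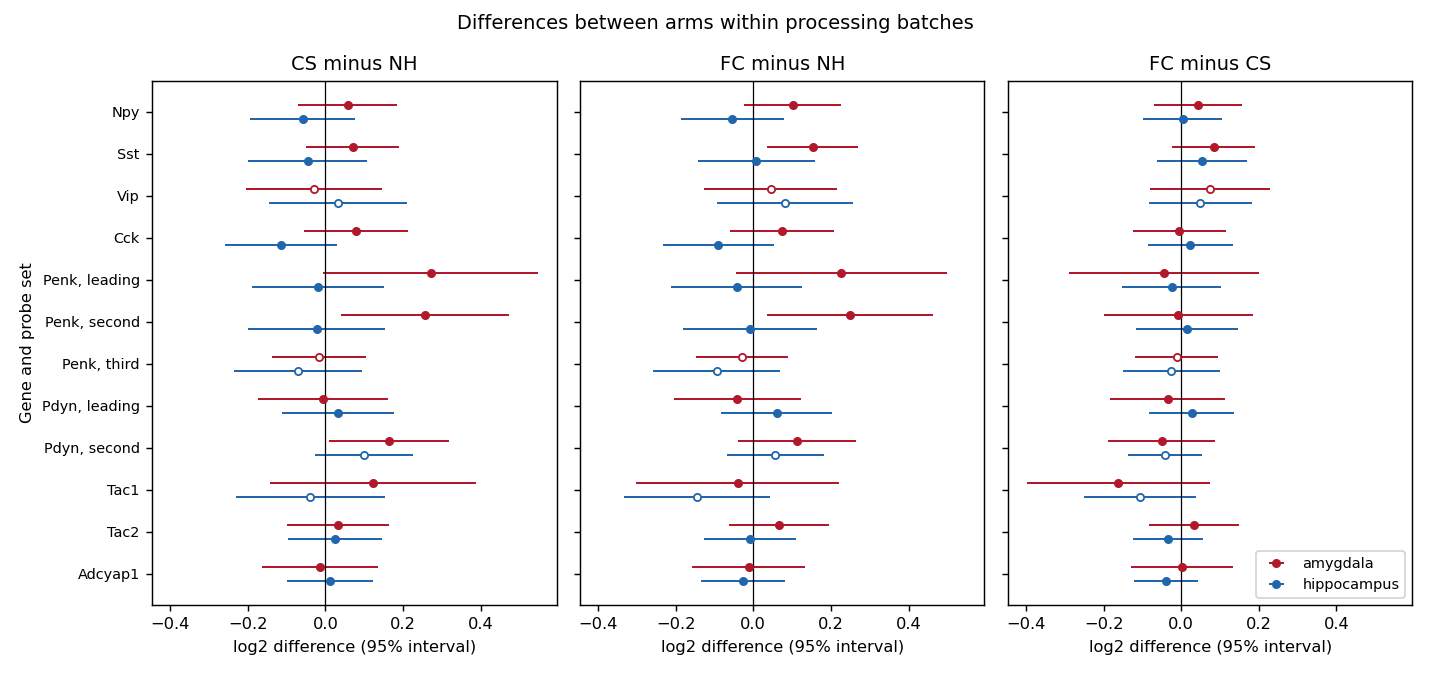
Log2 difference between arms within processing batches (horizontal axis, with 95% intervals) for each probe set (vertical axis), for CS minus NH, FC minus NH and FC minus CS, amygdala in red above hippocampus in blue. Open points mark probe sets below the dimness limit of that tissue. The intervals that leave out 0 are those of the second Penk probe set in CS minus NH and FC minus NH, the second Pdyn probe set in CS minus NH and Sst in FC minus NH, all in amygdala.

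Sst in amygdala had log2 intensities of 10.29, 10.43 and 10.50 (lowest, median and highest) in CS arrays. It had 10.36, 10.53 and 10.56 in FC arrays and 10.14, 10.31 and 10.39 in NH arrays. FC arrays stood high, and 5 of 6 exceeded all NH arrays of the batch they were in, although the groups overlapped. Of the CS arrays 5 of 6 did so too, and batch 3 has only 1 NH array. FC minus NH was 0.15 ± 0.06 (log2, SE; 95% interval 0.04 to 0.27), a fold of 1.11 (p = 0.0125, adjusted p = 0.894, limma). CS minus NH was 0.07 ± 0.06 (adjusted p = 0.942, limma). Batch bore on this value. NH arrays of batch 1, which holds no other arm, averaged 10.27, against 10.37 in batch 2 and 10.25 in the single NH array of batch 3. The FC mean exceeded the NH mean by 0.10 in batch 2 and by 0.29 in batch 3. Without that single NH array, 3142153, FC minus NH was 0.11. Without the batch term the Sst difference in FC minus NH was 0.19 with an adjusted p of 0.0303 (limma), so the call depends on that term.

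Penk in amygdala varied most among CS arrays. The leading probe set had log2 intensities of 9.95, 10.31 and 10.90 (lowest, median and highest) in CS arrays, 10.21, 10.33 and 10.56 in FC arrays and 9.88, 10.20 and 10.49 in NH arrays, and all groups overlapped. CS minus NH was 0.27 ± 0.13 (log2, SE; p = 0.0538, adjusted p = 0.942, limma) and FC minus NH was 0.23 ± 0.13 (adjusted p = 0.894, limma). The batches differed. In batch 2 the CS mean exceeded the NH mean by 0.48 and in batch 3, with 1 NH array, it lay below it, at -0.13. The FC difference from NH was 0.31 in batch 2 and -0.03 in batch 3. Without CS array 21523 the CS difference was 0.15, and without NH array 3142153 it was 0.42. The FC difference was 0.13 without NH array 29798 and 0.35 without NH array 3142153.

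The second Penk probe set gave differences of similar size in amygdala. It had log2 intensities of 5.97, 6.40 and 6.98 in CS arrays, 6.25, 6.56 and 6.69 in FC arrays and 5.95, 6.10 and 6.56 in NH arrays (lowest, median and highest). CS minus NH was 0.26 ± 0.11 (95% interval 0.04 to 0.47; p = 0.0226, adjusted p = 0.942, limma). FC minus NH was 0.25 ± 0.10 (0.04 to 0.46; p = 0.0239, adjusted p = 0.894, limma), and 5 of 6 FC arrays exceeded all NH arrays of the same batch. In batch 3, with 1 NH array, the CS difference was -0.05 and the FC difference 0.13. Leaving out single arrays moved the CS difference between 0.16 and 0.36 and the FC difference between 0.15 and 0.34.

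Beside these Penk values, the 3 of 8 striatal markers bright enough to test were positive in both comparisons, with medians of 0.05 in CS minus NH and 0.02 in FC minus NH. The summed intensity of all 8 ran from 435.0 to 468.4 in CS arrays, from 437.0 to 452.4 in FC arrays and from 421.2 to 464.4 in NH arrays. Of 5 oligodendrocyte markers tested, 4 were positive in each, with medians of 0.07 in CS minus NH and 0.16 in FC minus NH. The summed intensity of 8 oligodendrocyte markers ran from 1646 to 2024 in CS arrays, from 1778 to 2105 in FC arrays and from 1635 to 1991 in NH arrays. Over all probe sets 53.8% were positive in CS minus NH and 55.2% in FC minus NH. Of 11 hypothalamus and thalamus markers tested, 6 were negative in CS minus NH (median -0.03) and 9 in FC minus NH (median -0.06). The 2 choroid plexus markers tested were negative in both comparisons. The part of these cell types in the Penk differences was not tested.

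**Figure D3:**
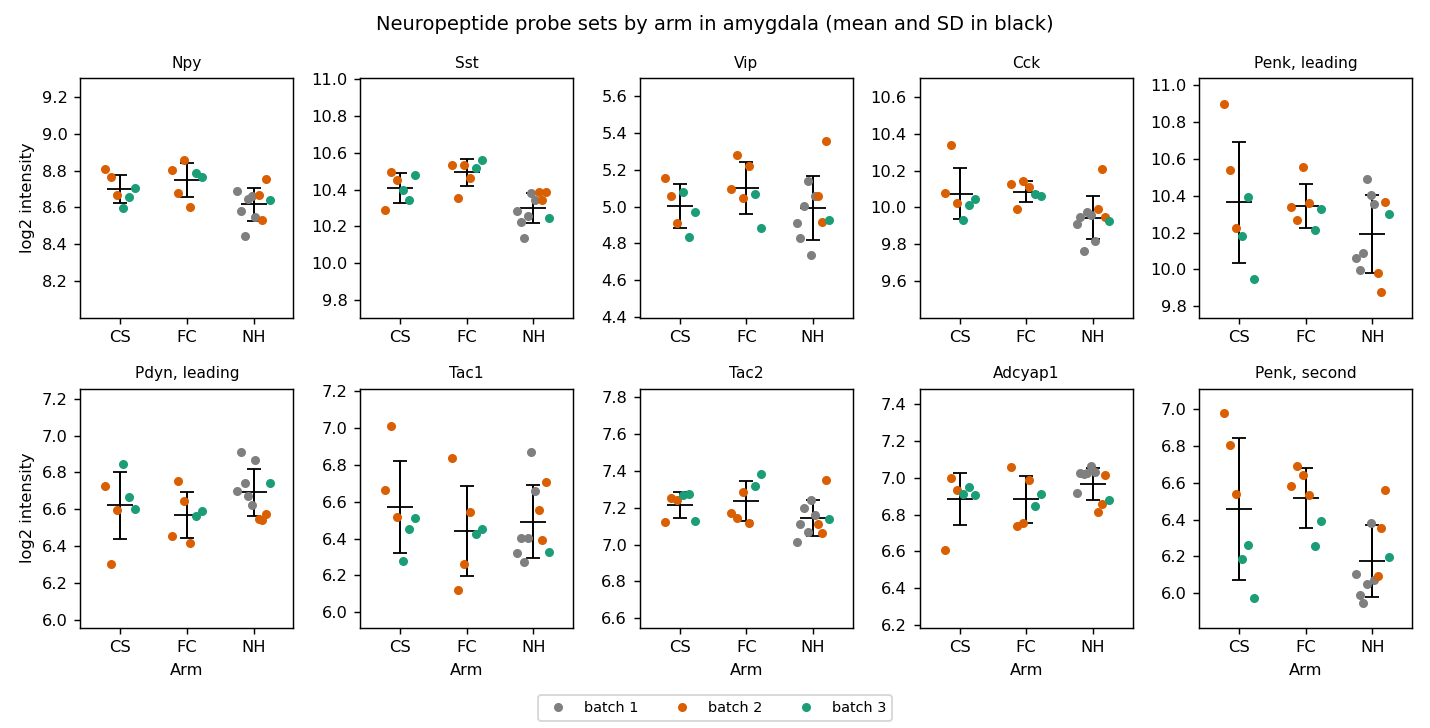
Log2 intensity (vertical axis) of the leading probe set of each gene and of the second Penk probe set in amygdala arrays, by arm (CS, FC and NH, left to right) and coloured by processing batch, with the mean and SD in black; each panel spans the same range of log2 units. NH arrays of batch 1 have no CS or FC partner, and for the leading Penk probe set the CS arrays reach from 9.95 to 10.90.

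Of the Pdyn probe sets in amygdala, only the second differed from NH by more than its SE. The second one had log2 intensities of 5.50, 5.61 and 5.81 in CS arrays, 5.45, 5.56 and 5.82 in FC arrays and 5.40, 5.51 and 5.70 in NH arrays (lowest, median and highest), with overlap. CS minus NH was 0.16 ± 0.08 (95% interval 0.01 to 0.32; p = 0.0390, adjusted p = 0.942, limma). Here 5 of 6 CS arrays exceeded all NH arrays of the same batch, but batch 3 has only 1 NH array. The leading probe set had a difference of -0.01 ± 0.08 in the same comparison and -0.04 ± 0.08 in FC minus NH, where the second one had 0.11 ± 0.07. A statement about Pdyn as a gene therefore depends on the probe set, and the probe sets were not tested against each other.

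The remaining amygdala probe sets stayed below the largest differences from NH of Sst, Penk and the second Pdyn probe set. Npy, with log2 medians of 8.69 in CS arrays, 8.77 in FC arrays and 8.64 in NH arrays, differed by 0.06 ± 0.06 in CS minus NH and 0.10 ± 0.06 in FC minus NH. Cck had medians of 10.04, 10.09 and 9.95 in CS, FC and NH arrays and differed by 0.08 ± 0.07 and 0.07 ± 0.06. Tac1 differed by 0.12 ± 0.13 in CS minus NH (0.03 without CS array 23139) and by -0.04 ± 0.13 in FC minus NH. Tac2 differed by 0.03 ± 0.06 and 0.07 ± 0.06, and Adcyap1 by -0.01 ± 0.07 in both. The intervals of all 10 tested probe sets lay between 0.812-fold and 1.46-fold of NH over both comparisons, and those without Penk and Tac1 between 0.867-fold and 1.25-fold.

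FC minus CS sets the arms against each other directly. In amygdala 0 of 10 probe sets were called (limma), as were 0% of all probe sets, and 0 of 10 had an unadjusted p below 0.05, against 1.23% of all. Tac1 had the largest difference, -0.16 ± 0.11 (95% interval -0.40 to 0.07), with log2 intensities of 6.12, 6.44 and 6.84 in FC arrays and 6.28, 6.52 and 7.01 in CS arrays (lowest, median and highest), which overlapped. Without CS array 23139 it was -0.08. Sst had 0.08 ± 0.05, and 4 of 6 FC arrays exceeded all CS arrays of the same batch. All 10 intervals included 0 and lay between 0.759-fold and 1.15-fold.

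**Figure D4:**
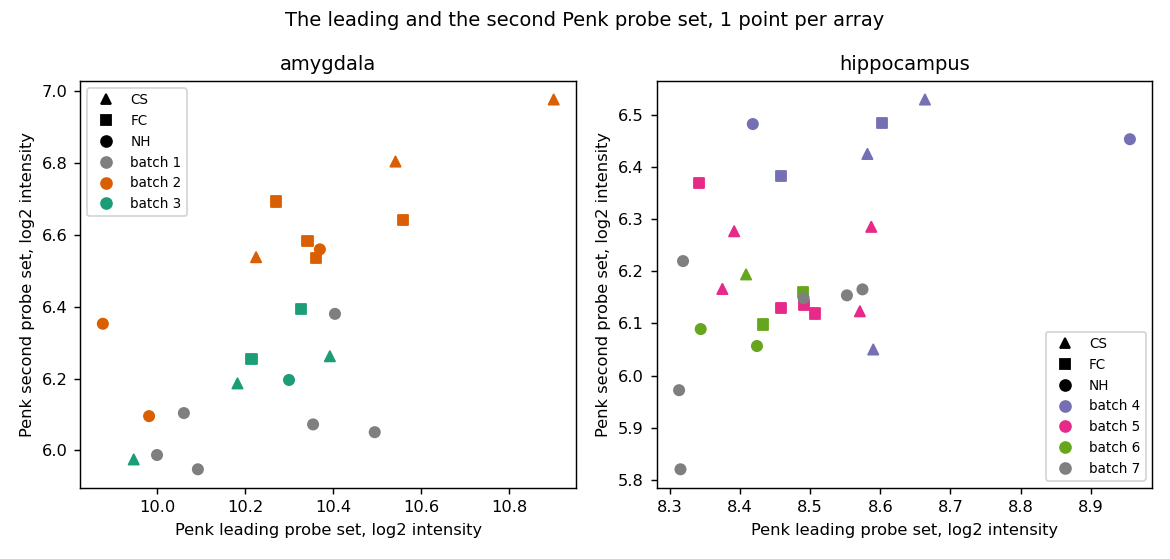
Log2 intensity of the leading Penk probe set (horizontal axis) against that of the second Penk probe set (vertical axis), 1 point per array, amygdala left and hippocampus right, with shape for the arm and colour for the processing batch. In amygdala the highest array for both probe sets is a CS array of batch 2, and in hippocampus NH array 100 stands far to the right, at 8.96.

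In hippocampus the peptides stayed close to NH. None of the 8 tested probe sets was called in CS minus NH or FC minus NH, where 0.0134% of all probe sets were called in each (limma), nor in FC minus CS, where 0% were. At an unadjusted p below 0.05 there were 0 of 8 in each of these, against 1.45% of all probe sets in CS minus NH, 2.27% in FC minus NH and 0.765% in FC minus CS. The tested intervals all included 0 and ran from 0.836-fold to 1.13-fold in CS minus NH, from 0.851-fold to 1.15-fold in FC minus NH and from 0.899-fold to 1.12-fold in FC minus CS. Cck had the largest difference, -0.11 ± 0.07 in CS minus NH, with log2 intensities of 10.70, 10.82 and 10.95 in CS arrays and 10.67, 10.81 and 11.07 in NH arrays (lowest, median and highest). Without NH array 100 it was -0.06, and without the batch term 0.00.

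Sst in hippocampus had log2 intensities of 10.24, 10.44 and 10.59 in CS arrays, 10.22, 10.44 and 10.62 in FC arrays and 10.42, 10.49 and 10.71 in NH arrays (lowest, median and highest), and all arms overlapped. It differed by -0.05 ± 0.07 in CS minus NH and by 0.01 ± 0.07 in FC minus NH. The leading Penk probe set differed by -0.02 ± 0.08 and -0.04 ± 0.08, and leaving out NH array 100 turned these to 0.12 and 0.09. Of the probe sets below the dimness limit, which were not tested, Tac1 had the largest difference, -0.14 ± 0.09 in FC minus NH.

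**Figure D5:**
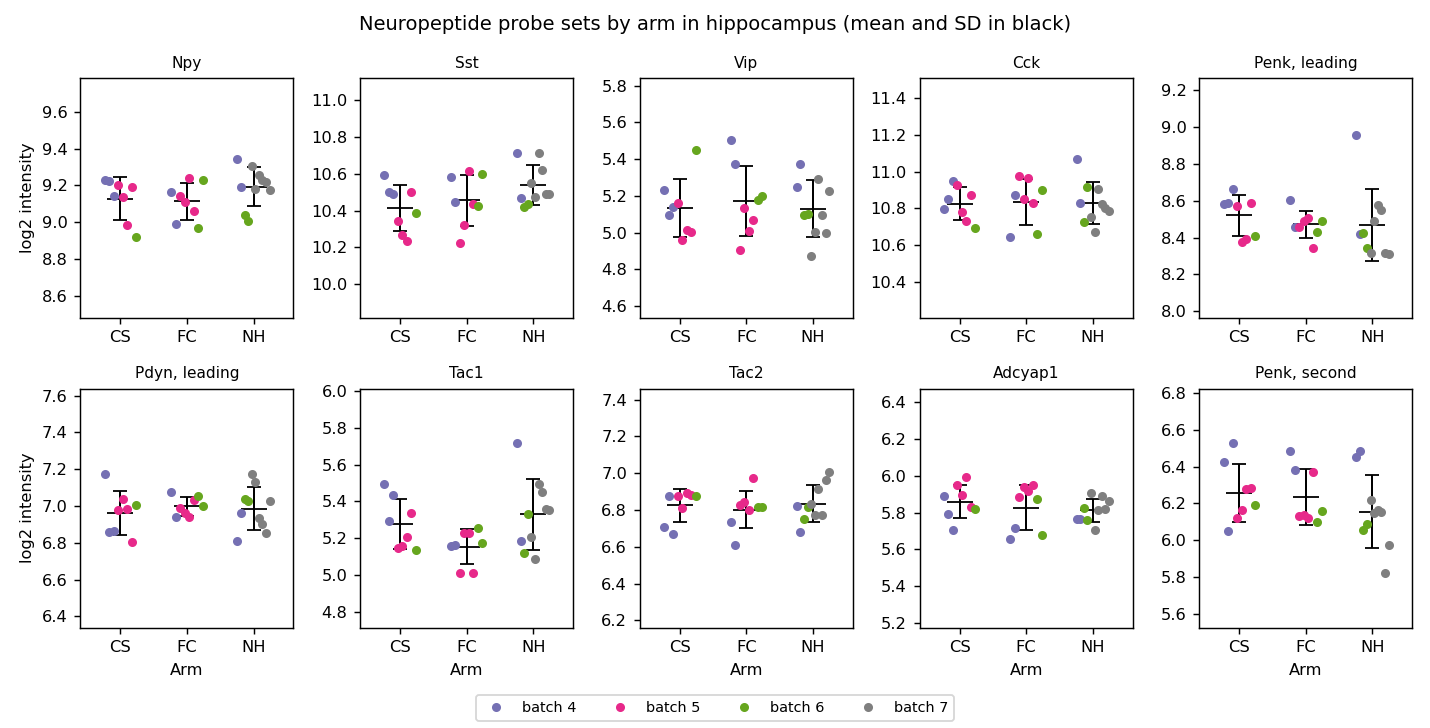
Log2 intensity (vertical axis) of the leading probe set of each gene and of the second Penk probe set in hippocampus arrays, by arm (CS, FC and NH, left to right) and coloured by processing batch, with the mean and SD in black; each panel spans the same range of log2 units. The arms overlap in every panel, and batch 5 holds no NH array and batch 7 no other arm.

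Whether the differences between arms differed between the tissues was tested in a joint fit of the 10 probe sets bright enough in either tissue. None was called, as was 0% of all 7664 probe sets (limma). The largest was that of the leading Penk probe set, whose CS minus NH difference was larger in amygdala than in hippocampus by 0.29 ± 0.16 (p = 0.0831, adjusted p = 0.999, limma). Cck had 0.19 ± 0.10 in the same test (p = 0.0510, adjusted p = 0.999, limma), from 0.08 in amygdala and -0.11 in hippocampus.

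The other genes of peptide signalling were taken as 3 lists. Of 25 receptors, 23 had a probe set and 15 were tested in each tissue. Of 24 genes of peptide processing and dense core vesicles, 19 had a probe set, with 16 tested in amygdala and 14 in hippocampus. Of 37 other neuropeptide genes, 23 had a probe set and 14 were tested. No gene of these lists was called in any of the 6 comparisons (limma), where the background was 0.0939% or less. At an unadjusted p below 0.05 there were 2 receptors in hippocampus FC minus NH and, in amygdala, 1 receptor and 1 processing gene in FC minus NH and 1 of the other neuropeptides in CS minus NH. Over all probe sets these shares were 2.27% in hippocampus FC minus NH, and 5.15% in FC minus NH and 3.92% in CS minus NH in amygdala.

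In amygdala the signs of the receptors were mostly negative, with 13 of 15 negative in CS minus NH (median -0.05) and 12 of 15 in FC minus NH (median -0.04), none of them called. Over all probe sets 53.8% were positive in CS minus NH and 55.2% in FC minus NH. Sstr2, a receptor for somatostatin, had the smallest p among them in FC minus NH, with a difference of 0.14 ± 0.07 (p = 0.0422, adjusted p = 0.894, limma). Cckbr, the main cholecystokinin receptor of the brain, had -0.12 ± 0.07 in CS minus NH. Of the processing genes, 13 of 16 were positive in CS minus NH and 11 of 16 in FC minus NH, and Dpp4, a peptidase that trims neuropeptide Y, had -0.15 ± 0.06 in FC minus NH. Of the other neuropeptides, 8 of 14 were negative in CS minus NH (median -0.01) and 12 of 14 in FC minus NH (median -0.05). Among them Gal, which encodes galanin, had -0.16 ± 0.06 in CS minus NH and -0.12 ± 0.06 in FC minus NH. In hippocampus the smallest p values among receptors in FC minus NH were those of Sstr3, another somatostatin receptor (0.19 ± 0.08), and Npy2r, a receptor for neuropeptide Y (-0.16 ± 0.07), both with an adjusted p of 1.00 (limma).

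How far the peptides moved together from array to array was read after batch and arm means were removed, over 22 amygdala and 26 hippocampus arrays, for 52 pairs of probe sets. Of these, 32 correlations were positive, and 0 passed by Pearson's r and 1 by Spearman's rho after adjustment over the 52 pairs (permutation within batch and arm). The leading and second Penk probe sets had r = 0.771 (permutation p = 0.00366, adjusted 0.0634) and rho = 0.732 (permutation p = 0.00661, adjusted 0.0859), and r = 0.668 without the 2 farthest arrays, in amygdala. In hippocampus the same pair had r = 0.144 (permutation p = 0.385). The Pdyn probe sets in amygdala had r = -0.0918 (permutation p = 0.727). Npy and Sst, which many hippocampal interneurons make together, had r = 0.668 in hippocampus (permutation p = 0.00281, adjusted 0.0634) and rho = 0.642 (permutation p = 0.00495, adjusted 0.0859), and r = 0.622 without the 2 farthest arrays. In amygdala they had r = 0.392 (permutation p = 0.0826, adjusted 0.259). The pair that passed by rho was Cck and the leading Pdyn probe set in hippocampus, with r = -0.553 (permutation p = 0.00161, adjusted 0.0634) and rho = -0.651 (permutation p = 0.000450, adjusted 0.0234), and r = -0.525 without the 2 farthest arrays.

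The probe sets most like each leading peptide over the arrays of a tissue, after the same removal, were mostly not peptides. Of 24 named in amygdala 2 were themselves neuropeptide probe sets, and of 21 in hippocampus 0 were. For Penk in amygdala they were Hpca (r = 0.805), its own second probe set (0.771) and Mobp (0.763), over 22 arrays. For Tac1 in amygdala Pclo came first (r = 0.914), and for Tac2 the second Pdyn probe set (r = 0.674). For Sst in hippocampus Smdt1 came first (r = 0.849), and for Npy in hippocampus Fam216a (r = 0.788), over 26 arrays. These are the highest of many correlations among arrays that share processing, and they carry no p.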

How the data were processed

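Per the submitters' processing notes, the authors used RMA to make the deposited intensity values, which are linear; the RMA version was not given in the sources used here. That tissues were normalized apart is read from the array medians. Intensities were log2 transformed with nothing added. Of 12488 probe sets, 66 array controls were left out.

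Each tissue was fitted with limma 3.58.1 in R 4.3.3, with arm and processing batch as fixed terms, on the 7453 probe sets left after the dimmest 40%. Tests were two-sided with Benjamini-Hochberg adjustment and a threshold of 0.05. Tissues were compared on normal scores of within-array ranks over 12422 probe sets, with batch as a random block (correlation 0.236). Scripts were tested on simulated data. Pair correlations used 100000 permutations within batch and arm. All probe sets of the chosen genes are named; of each other list, those with the 2 smallest p per comparison; for likeness, the 3 highest r. The genes and lists were chosen with earlier results of these data known. Alternatives covered the filter, the batch term, the arms fitted, renormalization, single batches and each array left out. The number of arrays limits precision.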

Additional observations from a re-analysis of the deposited data

Results flagged for a closer look

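In 5 of 72 sets of arrays (a probe set in an arm of a tissue) the highest or lowest array lay far from the next, by Dixon's 95% critical value; chance gives about 1 in 20. Cck was high in amygdala in CS array 23139, at 10.34 (log2) with 10.08 next, and in NH array 29798, at 10.21 with 9.99 next. Adcyap1 was low in amygdala in CS array 21523, at 6.61 with 6.91 next. In hippocampus NH array 100 was highest for the leading Penk probe set, at 8.96 with 8.57 next, and for the third, at 3.17 with 2.98 next. The leading Penk probe set's NH comparison in hippocampus changes sign without that array.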

How the results depend on the processing

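The number of neuropeptide probe sets called in amygdala FC minus NH was 1 in place of 0 without the batch term, and that probe set was Sst (adjusted p = 0.0303, limma). Under the alternatives run, 8 to 9 probe sets were higher and 1 lower in amygdala than in hippocampus. The other counts of called probe sets were 0 under each alternative; with a count of 0 and few NH arrays, down to 1 in a single batch, this says little about stability. With each array left out in turn, counts of called probe sets in the arm comparisons stayed at 0, and the lowest adjusted p was 0.300 in amygdala and 0.783 in hippocampus (limma). Among single probe sets, the tissue call of the leading Pdyn probe set was lost with CS and FC arrays alone (score difference 0.0735). A further 16 single values moved beyond the spread between arrays, mostly in batches taken alone; the causes were not tested. No paired analysis was possible because arms of a tissue share no replicate number. Animals that the tissues may share, by title numbers, were not modelled. Precision is limited by the 4 NH arrays per tissue that share a batch with other arms.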
